A study of Homo sapiens with 3 samples.

Results

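The zinc finger genes of chromosome 19 were examined for peaks of BRG1, the ATPase of the SWI/SNF chromatin remodelling complex. They were chosen by symbol and chromosome, and the peaks described for each were selected on their position alone, with no cut on fold or q. Members are protein-coding genes of chromosome 19 named ZNF and a number, 6 of them with a letter after it (such as ZNF585A). This gave 246 genes, 17.5% of the 1405 protein-coding genes of the chromosome and part of 19716 protein-coding genes in all. Chromatin immunoprecipitation and sequencing (ChIP-seq) had been done on the established human cell line 12Z, epithelial cells from endometriosis, in its wild-type form and with an antibody to BRG1. The series has 2 BRG1 libraries, here replicate 1 and replicate 2. It also has 1 input library, made without antibody. All came from the same unmodified line with no treatment, so there is no second condition, and the labels do not say whether the replicates were separate cultures.

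Each ZNF protein of this kind reads DNA through a row of C2H2 zinc fingers, small folds held by zinc. Many also carry a KRAB domain, which recruits the corepressor TRIM28; TRIM28 in turn brings the histone methyltransferase SETDB1 and heterochromatin proteins of the CBX family. The proteins are best known for silencing transposable elements, and their genes arose by repeated tandem duplication, so that they lie in dense clusters along chromosome 19. SWI/SNF, by contrast, slides and evicts nucleosomes and is known mainly from enhancers and promoters.

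Few of these genes had a BRG1 peak. The series' overlap list, whose peaks are called shared peaks here, placed a peak at 3 of the 246 ZNF genes, ZNF507, ZNF792 and ZNF611 (1.22%, 95% Wilson interval 0.416 to 3.52%). A gene was counted when the midpoint of a peak lay in its body, or within 100 kb with that gene as the nearest protein-coding gene. Among the 1159 other protein-coding genes of chromosome 19 the share was 5.09% (59 genes, interval 3.97 to 6.51%), and among all protein-coding genes it was 9.76%. The replicate lists kept that order. In replicate 1, 6 ZNF genes had a peak (2.44%, interval 1.12 to 5.22%), against 8.97% of the other chromosome 19 genes and 20.4% of all genes. In replicate 2, 5 ZNF genes had one (2.03%, interval 0.871 to 4.67%), against 5.78% and 11.6%. Over the 3 lists, 8 ZNF genes had a peak and 238 had none. ZNF genes on other chromosomes had shared peaks in 16 of 263 cases (6.08%, interval 3.78 to 9.65%), replicate 1 peaks in 15.6% and replicate 2 peaks in 9.13%. Those shares are above the ones of the ZNF genes of chromosome 19 in each list, and the intervals of the 2 groups of ZNF genes do not overlap. These shares are given without a test, because the genes were chosen with results of these data known, and neighbouring genes are not independent.

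**Figure D1:**
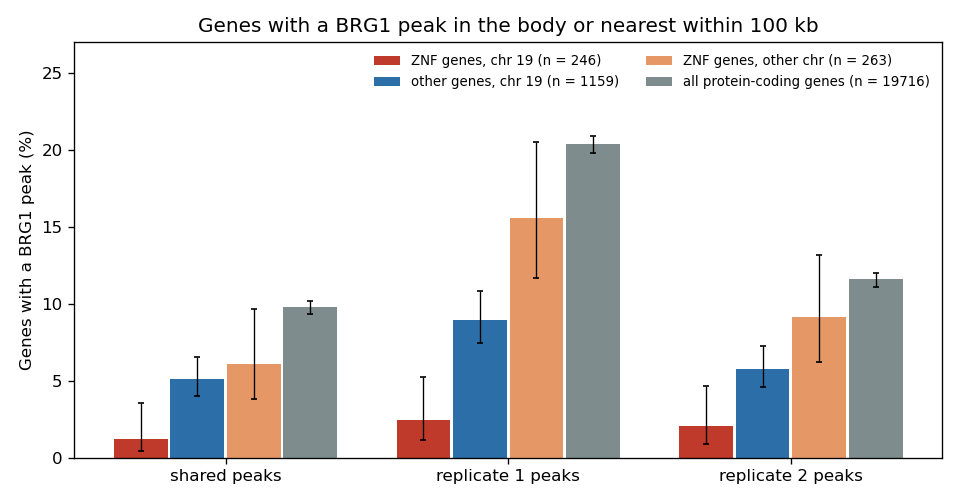
Percent of genes with a BRG1 peak (vertical axis) in the shared list and in each replicate list, for ZNF genes of chromosome 19, other genes of chromosome 19, ZNF genes of other chromosomes and all protein-coding genes. Bars are shares and error bars are 95% Wilson intervals. The ZNF genes of chromosome 19 had the lowest share in each list, 1.22%, 2.44% and 2.03%.

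ZNF507 had the strongest peak of the 3. This gene, which codes for a C2H2 zinc finger protein, stands alone, with no other ZNF gene within 500 kb of it. Its shared peak spanned 32351420 to 32352349 on chromosome 19 (build GRCh38.p12), inside the gene body. The authors' fold over background was 3.80 in the shared list, 3.74 in replicate 1 and 4.77 in replicate 2. The −log10 q at this place was 4.33, 2.18 and 3.96 in the same order. In replicate 2 the fold stood at percentile 96.9 of all peaks of that library, and in replicate 1 at percentile 69.3. Replicate 1 held another peak in ZNF507, at 32373854 to 32373971 (fold 3.86), that replicate 2 did not.

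ZNF611 lay in the cluster of 39 genes that runs from ZNF175 to ZNF331, and its protein is among the KRAB zinc finger proteins known to bind SVA retrotransposons. The shared peak in its body spanned 52722323 to 52722761. Its fold was 3.61 in the shared list, 3.84 in replicate 1 and 4.35 in replicate 2, at percentiles 74.4, 76.4 and 90.7 of those lists. The −log10 q was 3.66, 2.36 and 3.03. No other of the 39 genes of that cluster had a peak in any list, though ZNF83, ZNF600 and ZNF28 lay 32.0, 41.6 and 74.9 kb from the ZNF611 peak. ZNF577 lay 4.84 kb from a peak of replicate 2 alone, at 51799529 to 51799681 (fold 3.85). That peak was in the body of another gene, FPR3, and was counted there.

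ZNF792 had the weakest of the 3 peaks. It closes a group of 5 genes that begins with ZNF302. The peak spanned 34960252 to 34960860 within the gene body. The fold was 3.16 in the shared list, 3.38 in replicate 1 and 3.51 in replicate 2, at percentiles 33.7, 31.5 and 34.4. The −log10 q was 3.05, 1.87 and 1.73. The 3 genes thus kept the same order of fold in replicate 2 and in the shared list, while in replicate 1 the fold at the ZNF611 peak was above that at the matching ZNF507 peak.

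None of the 3 peaks lay at the transcription start at hand for its gene. The RefSeq promoters used gave 1 start for each of these genes, and other starts were not examined. From that start the midpoints lay 6.27 kb downstream in ZNF507, 3.67 kb downstream in ZNF792 and 12.5 kb downstream in ZNF611. The 250 bases before those starts (RefSeq, GRCh38.p14, 5′ to 3′ on the gene's own strand, which is plus for ZNF507 and minus for ZNF792 and ZNF611) are shown because they are the promoters of the only ZNF genes with a shared peak. CpG dinucleotides are in capitals.
ZNF507: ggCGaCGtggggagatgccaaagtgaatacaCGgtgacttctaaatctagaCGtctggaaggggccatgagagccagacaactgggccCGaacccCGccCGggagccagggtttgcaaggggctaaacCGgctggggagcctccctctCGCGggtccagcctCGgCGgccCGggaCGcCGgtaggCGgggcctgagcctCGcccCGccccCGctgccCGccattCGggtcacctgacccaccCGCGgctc
ZNF792: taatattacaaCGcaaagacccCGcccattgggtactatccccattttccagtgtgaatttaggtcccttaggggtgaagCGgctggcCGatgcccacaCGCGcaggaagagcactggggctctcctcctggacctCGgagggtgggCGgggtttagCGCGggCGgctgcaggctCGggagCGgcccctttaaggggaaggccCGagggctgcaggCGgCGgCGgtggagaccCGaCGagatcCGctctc
ZNF611: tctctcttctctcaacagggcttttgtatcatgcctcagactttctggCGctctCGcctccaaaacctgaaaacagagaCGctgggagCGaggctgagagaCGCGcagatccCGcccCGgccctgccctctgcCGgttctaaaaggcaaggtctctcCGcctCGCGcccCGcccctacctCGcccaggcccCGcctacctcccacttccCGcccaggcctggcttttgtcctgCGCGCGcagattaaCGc
They hold 23, 20 and 20 CpG dinucleotides, with G and C at 69.6%, 64.4% and 63.6% of bases.

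No BRG1 peak lay at a ZNF promoter for which a sequence window was at hand. RefSeq promoter windows of 300 bases (250 before to 50 after a start) matched 216 of the 246 ZNF genes, with 268 windows. No peak of the shared, replicate 1 or replicate 2 list overlapped any of these windows or came within 1 kb of one. With 0 of 216 genes, a share of up to 1.39% remains possible in each list. Among the 966 other chromosome 19 genes with a window, a peak overlapped the window of 6 genes in the shared list (0.621%), 8 in replicate 1 (0.828%) and 5 in replicate 2 (0.518%). A peak came within 1 kb in 11 genes of the shared list (1.14%), 23 of replicate 1 (2.38%) and 12 of replicate 2 (1.24%). The replicate 1 share within 1 kb lay above the limit of 1.39%, and the other 5 shares lay below it. That limit stands for 3 counts in 216 genes and is narrower than the Wilson interval, which reached 1.75%. In replicate 1 this interval overlapped that of the other genes within 1 kb (1.59 to 3.55%). Overlap of intervals does not decide whether the groups differ, and a difference at promoters was not tested.

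The ZNF promoters were not poor in CpG. Their windows held a median of 20.0 CpG dinucleotides (quartiles 14.0 and 26) and 60.0% G and C (quartiles 56.3 and 64.7%). The 1277 windows of other chromosome 19 genes held a median of 21.0 (quartiles 9 and 31.0) and 64.3% G and C (quartiles 58.3 and 70.0%). Of 2 motifs searched on both strands, each counted without regard to overlap with the other, GGGCGG, the core of the GC box, was in 64.9% of the ZNF windows, 65.9% of the other chromosome 19 windows and 45% of all 34961 promoter windows. TGANTCA, a loose form of the AP-1 motif with any base at N, was in 5.97%, 4.78% and 7.68%. The windows of ZNF507, ZNF792 and ZNF611 each held GGGCGG and none held TGANTCA. These matches describe the letters only.

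A further 5 ZNF genes had a peak in 1 replicate and no shared peak, and all 5 lay in the cluster from ZNF101 to ZNF254. That cluster holds 37 ZNF genes over 4.46 Mb and borders the centromere side of the short arm. ZNF91, whose protein represses SVA retrotransposons, had a replicate 1 peak at 23414953 to 23415221, which is 19.6 kb from the gene (fold 3.47, −log10 q 1.91). ZNF728 had a replicate 1 peak in its body at 22975768 to 22975959 (fold 3.55, −log10 q 1.71). ZNF729 had a replicate 2 peak 5.54 kb away at 22322472 to 22322951 (fold 3.69, −log10 q 1.80). ZNF98 had a replicate 2 peak 59.9 kb away at 22482133 to 22482285 (fold 3.70, −log10 q 1.74). Each of these 4 peaks was found in its own replicate only, and their folds stood between percentiles 42.9 and 51.5 of their lists.

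ZNF675 shows what the limit of 100 kb does. Its protein is known to dampen signalling from the receptor RANK through TRAF6. Replicate 1 had 2 peaks just inside the limit, 97.2 and 98.2 kb from the gene, with folds of 3.31 and 3.69, and neither overlapped a peak of replicate 2. Just outside, 103 kb from the gene, was a shared peak at 23548613 to 23550956 (fold 3.45, −log10 q 3.84). Each replicate had its own peak there, 102 kb away, with a fold of 4.06 in replicate 1 and 3.85 in replicate 2. ZNF675 therefore counts as a gene with a replicate 1 peak and not as one with a shared peak.

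**Figure D2:**
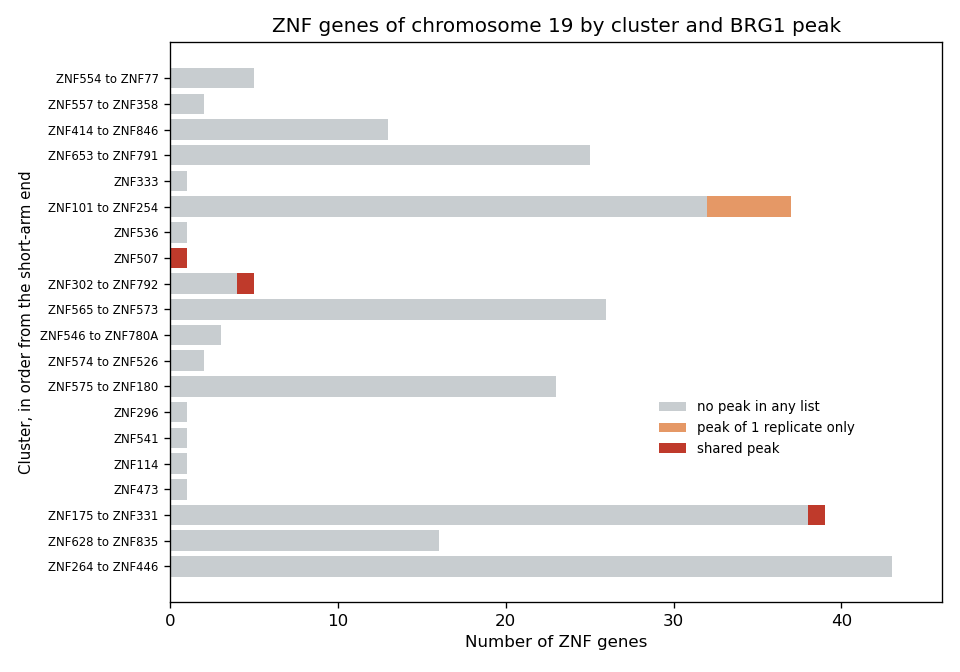
Number of ZNF genes of chromosome 19 (horizontal axis) in each cluster or single position, from the short-arm end at the top to the long-arm end, split into genes with a shared peak, genes with a peak of 1 replicate only and genes with none. The 5 genes with a peak of 1 replicate only are all in the cluster from ZNF101 to ZNF254, and the cluster from ZNF264 to ZNF446 holds 43 genes with no peak.

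The clusters themselves were sparse in peaks. ZNF genes whose bodies lay within 500 kb of each other were joined, which gave 20 clusters or single genes with a total span of 15.7 Mb. Of the ZNF genes, 222 lay in the 8 clusters of 10 or more. Over all the spans there were 6 shared peaks, or 0.381 per Mb. The rest of the chromosome, without its longest gene-free stretch, held 69 in 37.6 Mb, or 1.83 per Mb. Replicate 1 gave 1.08 peaks per Mb in the spans and 4.09 in the rest, and replicate 2 gave 0.635 and 2.47. Each list thus had fewer peaks per Mb inside the clusters than outside.

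Of the 6 shared peaks in the spans, 3 were those of ZNF507, ZNF792 and ZNF611 and 1 was the peak beyond the limit from ZNF675. The others were nearest to interspersed genes, MUC16, which codes for the mucin CA125, and POU2F2, a transcription factor of B cells. The MUC16 peak, 9.99 kb from that gene at 9075603 to 9075883, was the strongest of the 6, with a fold of 4.81 at percentile 99.3 of the shared list. It lay 64.7 kb from ZNF317, a larger distance than to MUC16.

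Of the clusters and single genes, 11 held no peak of any list, and 3 of these had 10 or more ZNF genes: ZNF565 to ZNF573, ZNF628 to ZNF835 and ZNF264 to ZNF446. Together these 3 hold 85 ZNF genes in 4.09 Mb, and 43 other protein-coding genes lie inside the same spans. These clusters were picked for holding no peak, so their count sets no limit on a share. The most distant gene was ZNF446, at the end of the long arm, 3269 kb from its nearest shared peak.

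Genes other than ZNF genes inside the spans were also rarely marked. Of 93 such genes, 2 had a shared peak (2.15%, interval 0.592 to 7.51%), against 57 of 1066 outside (5.35%, interval 4.15 to 6.87%). These intervals overlap, which does not decide whether the interspersed genes differ from the genes outside. That was not tested.

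By length, the stretch assigned to a ZNF gene was at the median longer than that of the other genes of chromosome 19. In how much of it reads could be placed was not measured. The domain of a gene, all positions that would be assigned to it, had a median of 38.1 kb for ZNF genes and 23.5 kb for the other chromosome 19 genes. Domains were longer elsewhere, with a median of 63.0 kb for ZNF genes of other chromosomes and 56.9 kb for all genes. What these longer domains contribute to the higher shares of those groups was not tested. Per Mb of domain, ZNF genes had 0.231 shared peaks and other genes 1.75, a ratio of 0.132 (exact 95% interval 0.0266 to 0.402, counting error only). With gene bodies alone the ratio was 0.298. ZNF genes of other chromosomes had 0.936 shared peaks per Mb of domain and all genes 1.56. In replicate 1 the densities were 0.616 per Mb for ZNF genes of chromosome 19 and 4.03 for other chromosome 19 genes. In replicate 2 they were 0.385 and 2.38 in the same order. Among other chromosome 19 genes, sorted by domain length into 4 classes of equal gene number over the chromosome, the share with a shared peak was higher in each longer class, from 1.19% to 3.01%, 5.66% and 12.0%. Among ZNF genes it was 0 of 15, 0 of 52, 1 of 86 (1.16%) and 2 of 93 (2.15%). In the longest class, of domains over 46.2 kb, the interval of the ZNF genes (0.592 to 7.51%) lay below that of the other genes (8.56 to 16.5%). In the 3 shorter classes the intervals overlapped, and the counts of 0 allow shares of up to 20.0% and 5.77%.

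**Figure D3:**
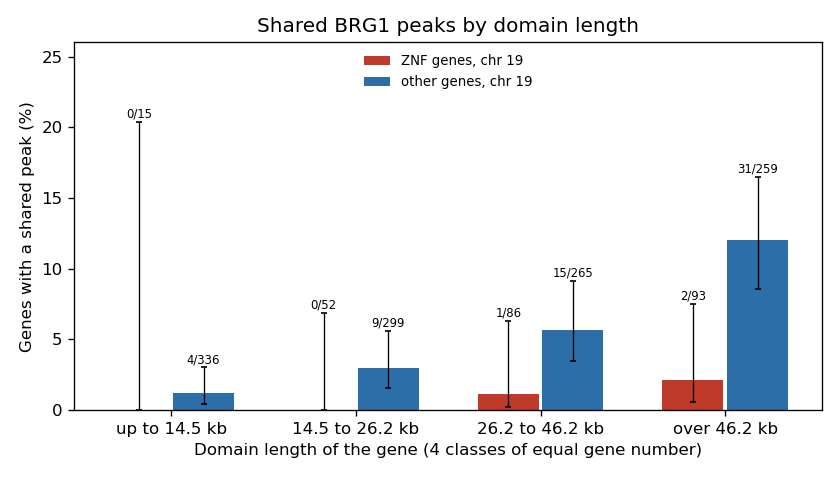
Percent of genes with a shared BRG1 peak (vertical axis) in 4 classes of domain length (horizontal axis, kb), for ZNF genes and other genes of chromosome 19. Bars are shares, error bars 95% Wilson intervals, and the labels give genes with a peak over genes in the class. The 2 groups are furthest apart in the longest class, at 2.15% and 12.0%.

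Distance gave the same picture without assigning peaks to genes, but it used the same shared peaks. Neighbouring genes often share a nearest peak, so their distances are not independent. The median distance from a gene body to the nearest shared peak was 672 kb for ZNF genes (quartiles 392 and 1403 kb) and 259 kb for the other chromosome 19 genes (quartiles 105 and 513 kb). A shared peak lay within 100 kb of 10 ZNF genes (4.07%) and of 282 other genes (24.3%). The 7 ZNF genes added to the 3 above were ZNF30, at 15.4 kb from the ZNF792 peak, ZNF83, ZNF600 and ZNF28 beside ZNF611, ZNF317, ZNF574 near the POU2F2 peak and ZNF541, at 26 kb from a peak nearest to BICRA. BICRA codes for a SWI/SNF subunit.

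**Figure D4:**
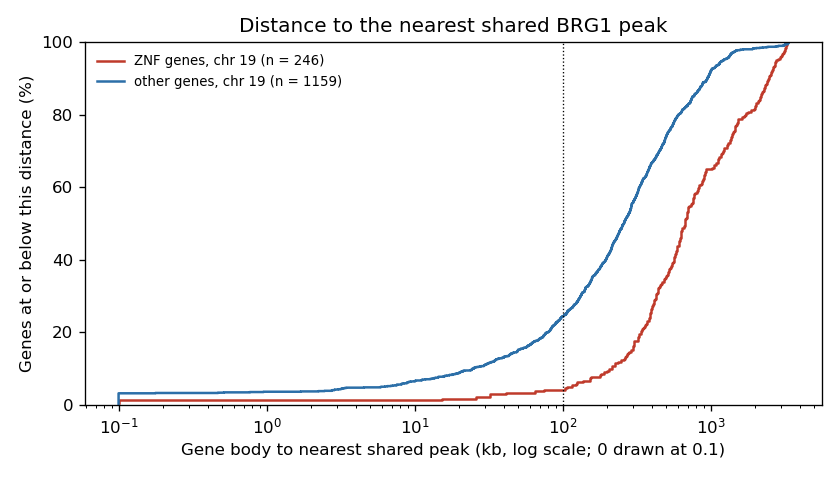
Cumulative percent of genes (vertical axis) by distance from the gene body to the nearest shared BRG1 peak (horizontal axis, kb, log scale, with genes that contain a peak drawn at 0.1). The dotted line marks 100 kb, which 4.07% of ZNF genes and 24.3% of other chromosome 19 genes had reached.

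Where a peak did lie near a ZNF gene, its strength was within the range of peaks near other genes. The 8 replicate 1 peaks had folds from 3.31 to 3.86 with a median of 3.62, against a median of 3.58 and a range of 2.99 to 5.67 for the 159 peaks near other chromosome 19 genes. The 5 replicate 2 peaks ran from 3.51 to 4.77 with a median of 3.70, against 3.67 and 3.23 to 5.03 for 94 peaks. In replicate 1 no peak near a ZNF gene passed a −log10 q of 2.40, while peaks near other genes reached 6.42. In replicate 2 the highest were 3.96 and 5.45. The widths had medians of 334 and 424 bp in the 2 replicates, against 349 and 300 bp near other genes.

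The peaks near ZNF genes were found in the other library in 3 of 8 cases for replicate 1 (37.5%, Wilson interval 13.7 to 69.4%) and 3 of 5 for replicate 2 (60.0%, interval 23.1 to 88.2%). Near other chromosome 19 genes the shares were 44.0% and 76.6%, which lie inside those intervals. With so few peaks a difference in agreement between the libraries was not detectable.

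**Figure D5:**
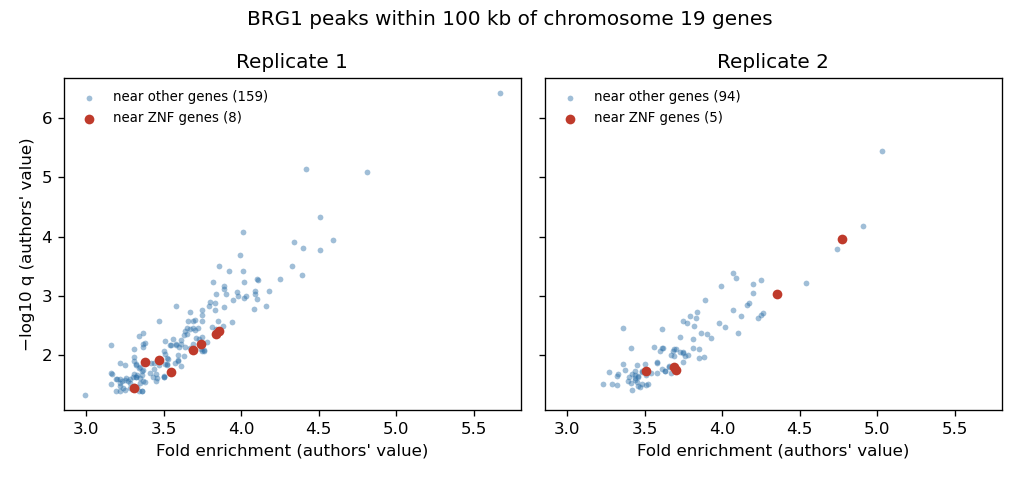
Fold enrichment (horizontal axis) and −log10 q (vertical axis) of each BRG1 peak assigned to a chromosome 19 gene, in replicate 1 and replicate 2, both as the authors give them. Points are peaks. The 8 and 5 peaks near ZNF genes lie within the range of the 159 and 94 peaks near other genes.

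The proteins through which KRAB zinc finger proteins silence their targets are encoded by genes spread over the genome, and 3 of 20 listed had a shared peak (15%, against 9.76% of all genes). CBX5, which codes for heterochromatin protein HP1 alpha, had one 8.5 kb away at 54222282 to 54222603 on chromosome 12 (fold 3.56). UHRF1, a cofactor of maintenance DNA methylation encoded on chromosome 19, had one in its body at 4911944 to 4912371 (fold 3.12). MORC3, a nuclear ATPase, had one in its body at 36350313 to 36350775 on chromosome 21 (fold 4.94), the strongest of the 3. TRIM28, the corepressor itself, which lies on chromosome 19, had no peak in any list.

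Other gene families of chromosome 19 were counted in the same way. None of 15 kallikrein genes, 28 KIR, LILR and SIGLEC genes, 18 olfactory receptor genes and 12 CYP2 and CYP4F genes had a shared peak, which allows shares of up to 20.0%, 10.7%, 16.7% and 25%. Each limit lies above the 5.09% of all chromosome 19 genes other than the ZNF genes. These families are therefore too small to be called low. Of 18 genes with other zinc finger symbols (ZFP, ZSCAN, ZIM, ZIK and ZBTB), 1 had a shared peak (5.56%), which is near that share. That was ZFP36, whose protein binds RNA through fingers of another type. The pregnancy-specific glycoproteins, also a tandem family, had shared peaks more often. Within the CEACAM and PSG list 9 of 22 genes had a shared peak, and all 9 were among its 10 PSG genes, a subset singled out after the values were seen. PSG1 and PSG2 had 3 shared peaks each, more than any other gene of the chromosome. These 9 PSG genes are counted among the 59 other chromosome 19 genes with a shared peak, and the share without them was not computed. Why the PSG genes had more shared peaks was not tested.

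Most chromosome 19 peaks lay away from genes, and this limits what the window of 100 kb shows for ZNF254, the last gene before the longest gene-free stretch (5.08 Mb, up to UQCRFS1). That stretch held 180 of the 255 shared peaks of the chromosome (70.6%), or 35.5 per Mb, as well as 406 of 577 replicate 1 peaks and 359 of 462 replicate 2 peaks. ZNF254 had no peak within 100 kb in any list, and 19 shared peaks between 603 kb and 1 Mb from it had it as nearest gene. With a window of 1 Mb, 5 ZNF genes had a shared peak (2.03%, against 5.18% of other genes), while the ratio of peaks per Mb of domain moved from 0.132 to 0.815. Of the 23 shared peaks then assigned to ZNF genes, 19 were those of ZNF254 in the gene-free stretch. The stretch begins at the cluster that borders the centromere side of the short arm, and lies on the centromere side of that cluster. What its many peaks reflect was not tested, and how reads matching several places were treated is not known.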

How the data were processed

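The deposited files are 3 broad peak lists, 1 per replicate and 1 overlap list for the series. The submitters' processing notes name Trim Galore, cutadapt, Bowtie2, Picard, SAMtools, bedtools and MACS2, with build GRCh38.p12. No source used here gives their versions and settings, how reads that match several gene copies were treated, or whether the overlap list used pooled reads. The authors' values per peak are a fold enrichment (ratio of signal to background), a −log10 p and −log10 q, and a score that was not used. The lists hold no read counts. Depth is therefore unknown, and intervals cover the counting of genes or peaks only.

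Chromosomes 1 to 22 and X entered, with 6293 shared, 17323 replicate 1 and 10082 replicate 2 peaks. Scripts ran in Python 3.11.15 (numpy 2.4.6, pandas 2.3.3, scipy 1.17.1, matplotlib 3.10.9). Gene bodies and promoters came from RefSeq tables of GRCh38.p14 and served for names, neighbours and distances. Readthrough genes (105) and 153 genes on alternate or unplaced scaffolds, 41 of them listed under chromosome 19, were left out. A peak in several gene bodies counted for each, and an overlap of 1 bp with a peak of the other replicate counted as found. The assignment was tested on simulated data.

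The ZNF genes, lists and window were chosen with earlier results of these data known, so no test was made. Named are ZNF genes with a peak in any list or at the 100 kb limit, silencing partners with a shared peak, TRIM28, and the other chromosome 19 genes with most shared peaks. Motifs, printed promoters and other named genes were added after seeing the data. The planned count of zinc fingers was not run. Alternatives varied the list, q, overlap, window, assignment and symbols.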

Additional observations from a re-analysis of the deposited data

How the results depend on the processing

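The lower share of ZNF genes with a shared peak kept its direction under every alternative that left any gene of chromosome 19 with a peak. Windows of 1 Mb, symbols without a letter and counting every gene within 100 kb were chosen after seeing the data. Leaving out 1 replicate means counting the peaks of the other library alone. Those gene counts repeat the replicate lists above and are not counts of shared peaks. The 3 ZNF genes with a shared peak became 5 to 6 without replicate 1 or without replicate 2, 1 with 50% of both peaks overlapping, 5 with a window of 1 Mb and 10 with every gene within 100 kb. They became 0 with a −log10 q of at least 3 in both replicates, where 3 other chromosome 19 genes were left, and 0 with at least 5, where 0 other genes were left. The difference from other chromosome 19 genes, −3.87 percentage points (95% interval −5.50 to −1.31), ranged from −6.53 to −3.75 without replicate 2 or without replicate 1. It was −0.259 and 0 with a −log10 q of at least 3 and 5, −1.80 with gene bodies only, −1.32 with 50% of both peaks and −20.3 with every gene within 100 kb. The ratio of peaks per Mb, 0.132, was 0.153 to 0.161 without replicate 2 or without replicate 1, 0.298 with gene bodies only, 0 with a −log10 q of at least 3 and 0.815 with a window of 1 Mb. It could not be computed with a −log10 q of at least 5, and was not defined for every gene within 100 kb. Leaving out 2 Mb around the longest gene-free stretch gave 0.165. The share of replicate 1 peaks found in replicate 2, 37.5%, became 12.5% with 50% of both peaks and 75% without those 2 Mb, where 4 peaks were left. That of replicate 2 peaks in replicate 1, 60.0%, became 20.0% with 50% of both peaks and 100% with gene bodies only and without those 2 Mb, where 3 peaks were left in each case. Fewer peaks entered several of these settings; otherwise the cause was not tested. The unknown read depth and the 3 shared peaks limit the precision of all these values.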
